A study of Mus musculus with 6 samples.

Results

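Blood genes were read as a measure of the blood that stays in the vessels of a snap-frozen brain. The set held 9 genes: the adult globins Hba-a1, Hbb-b1, Hbb-b2 and Hbb-bs, the red cell enzymes Alas2 and Bpgm, and the neutrophil genes Ngp, S100a8 and S100a9. Every probe set that the platform annotation gives to 1 of these genes alone was taken, which gave 10 probe sets for 7 of the genes, out of 45037 probe sets in all. Hbb-b1 and Hbb-bs had none of their own. The 6 arrays each carried the whole brain of 1 male mouse aged 2 months, 3 heterozygous for a knockout of periphilin (Pphln1) and 3 wild-type C57BL/6 littermates, and no treatment is named. The site and kind of the disruption are not given in the sources used here. The authors deposited linear intensities, already scaled to a common level on each array.

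Red cells carry oxygen on haemoglobin, a tetramer of alpha and beta globin chains with heme. Circulating red cells have lost their nucleus, but the youngest of them, the reticulocytes, still hold globin mRNA, which is why whole tissue with blood in its vessels yields globin signal. Alas2 encodes the erythroid form of the first enzyme of heme synthesis, and Bpgm the enzyme that makes 2,3-bisphosphoglycerate, which lowers the oxygen affinity of haemoglobin. S100a8 and S100a9 encode the 2 chains of calprotectin, a calcium-binding protein abundant in neutrophils, and Ngp encodes a granule protein of developing neutrophils. Globin transcripts have also been described in some neurons, so globin signal in brain need not all come from blood. In whole tissue, fewer cells of a type and less RNA per cell cannot be told apart.

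The promoter windows of 5 of the genes are shown to set erythroid beside neutrophil promoters. Each is the 250 bases before the gene start in RefSeq, build GRCm38.p6, 5′ to 3′ on the gene's strand. In the first 3, capitals mark GATAA (bound by GATA factors) and CACCC (a box bound by KLF factors) on either strand, and in the last pair TTNNGNAA, a C/EBP motif, on either strand.
Hba-a1 (chr11:32283422-32283671, plus strand): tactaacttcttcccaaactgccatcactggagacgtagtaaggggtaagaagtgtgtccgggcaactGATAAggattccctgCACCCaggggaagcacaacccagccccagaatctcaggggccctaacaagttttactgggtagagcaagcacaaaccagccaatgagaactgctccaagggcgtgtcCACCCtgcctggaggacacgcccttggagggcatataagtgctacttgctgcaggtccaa
Hbb-bs (chr7:103827929-103828178, minus strand): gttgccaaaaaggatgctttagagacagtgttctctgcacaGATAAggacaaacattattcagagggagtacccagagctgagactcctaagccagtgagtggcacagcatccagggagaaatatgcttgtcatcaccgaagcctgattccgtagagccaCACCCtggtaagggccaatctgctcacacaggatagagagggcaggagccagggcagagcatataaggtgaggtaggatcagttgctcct
Alas2 (chrX:150547167-150547416, plus strand): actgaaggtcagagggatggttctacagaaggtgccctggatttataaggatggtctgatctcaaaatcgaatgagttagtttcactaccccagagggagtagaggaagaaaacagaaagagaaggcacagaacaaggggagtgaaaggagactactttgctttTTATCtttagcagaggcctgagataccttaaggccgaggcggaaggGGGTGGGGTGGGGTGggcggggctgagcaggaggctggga
S100a8 (chr3:90668821-90669070, plus strand): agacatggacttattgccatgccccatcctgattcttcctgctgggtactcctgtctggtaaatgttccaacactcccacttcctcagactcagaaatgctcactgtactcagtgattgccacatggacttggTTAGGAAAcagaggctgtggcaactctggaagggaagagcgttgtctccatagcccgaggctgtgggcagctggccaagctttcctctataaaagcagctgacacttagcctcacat
S100a9 (chr3:90695722-90695971, minus strand): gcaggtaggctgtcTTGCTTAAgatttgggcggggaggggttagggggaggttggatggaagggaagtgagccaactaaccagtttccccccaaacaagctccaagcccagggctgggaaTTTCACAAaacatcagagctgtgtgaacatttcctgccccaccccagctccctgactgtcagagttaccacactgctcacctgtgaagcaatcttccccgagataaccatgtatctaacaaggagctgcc
The Hba-a1 window shares an unbroken run of 247 of its 250 bases with that of Hba-a2, the neighbouring copy. Between Hbb-bs and Hbb-bt, the beta copies of the reference strain, the longest shared run was 14 bases. GATAA occurred once in each of the windows of Hba-a1, Hbb-bs and Alas2, and in 22.6% of the 32851 RefSeq promoter windows of the same length. CACCC occurred 2 times in Hba-a1, once in Hbb-bs and 3 times in Alas2, where the 3 matches stand one after another, and in 52.0% of all windows. TTNNGNAA occurred once in S100a8, 2 times in S100a9 and 3 times in Ngp, and in 36.8% of all windows. It also occurred once each in Hba-a1, Hbb-bs and Bpgm. S100a9 held 1 match each of GATAA and CACCC, and the windows of S100a8, Ngp and Bpgm held neither. A match describes these letters in this window and is not a measured binding site.

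The globin probe sets with 1 gene read low, and 2 of the 3 were under the dim limit. Hba-a1 at 1453574_at measured 3.76, 0.41 and 12.3 in heterozygous 1, 2 and 3, and 16.2, 1.54 and 5.04 in wild type 1, 2 and 3. All 6 values lay below the dim limit, a signal of 18.4 under which the lowest 40% of probe sets were left out of testing. Hbb-b2, a beta globin of the diffuse haplotype that many strains other than C57BL/6 carry, had 2 probe sets. At 1427865_at it measured 24.6, 24.2 and 45.2 in heterozygous and 35.6, 49.0 and 28.3 in wild-type brains, with the genotypes interleaved. The log2 difference, heterozygous minus wild type, was -0.19 (SE 0.22, 95% confidence interval -0.68 to 0.30, limma adjusted p = 0.966). At 1427866_x_at it measured 15.2, 16.4 and 15.9 against 5.87, 17.8 and 9.38, again below the limit on all arrays and untested.

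The bright globin signal sat on 4 probe sets that the annotation assigns to several near-identical adult globins at once. They are given here as shared globin probe sets, since no single gene can be named from them, and they were added after the annotation had been seen. The shared beta probe set 1417184_s_at (Hbb-bt, Hbb-bs, Hbb-b2 and Hbb-b1) measured 2982, 3790 and 3373 in heterozygous and 3648, 3448 and 2563 in wild-type brains. Wild type 3 was lowest, followed by heterozygous 1, and the genotypes overlapped. The shared alpha probe set 1428361_x_at (Hba-a2 and Hba-a1) measured 5078, 5917 and 5762 against 5388, 5190 and 4339. The lowest pair was the same, wild type 3 and heterozygous 1. Its companion 1452757_s_at measured 4750, 5264 and 4554 against 4753, 4701 and 3742, with wild type 3 lowest and heterozygous 3 next. The alpha probe set 1417714_x_at was dimmer and spread far more, at 114, 367 and 230 against 364, 301 and 205. There heterozygous 1 stood lowest and heterozygous 2 highest, a 3.23-fold range, where the other shared probe sets ranged 1.36-fold to 1.48-fold.

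None of the 4 shared globin probe sets differed between genotypes beyond the spread of the brains. Their log2 differences were 0.17 (SE 0.10, interval -0.06 to 0.40) at 1428361_x_at, 0.15 (SE 0.11, interval -0.09 to 0.38) at 1452757_s_at, 0.08 (SE 0.13, interval -0.21 to 0.38) at 1417184_s_at and -0.37 (SE 0.32, interval -1.08 to 0.33) at 1417714_x_at. The limma adjusted p ran from 0.956 to 0.974, and the two-sided exact permutation p from 0.3 to 0.7, where 3 against 3 brains allow no p below 0.1. As a ratio, the interval at 1417184_s_at ran from 0.86 to 1.30 and that at 1428361_x_at from 0.96 to 1.32. The difference at 1417714_x_at turned to 0.04 without heterozygous 1, and that at 1417184_s_at to -0.005 without heterozygous 2 and to -0.08 without wild type 3.

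The hybridisation controls, labelled transcripts added to the array mix, moved with the globins in part. The geometric mean of their 9 probe sets was 776, 918 and 742 in heterozygous 1, 2 and 3 and 928, 908 and 675 in wild type 1, 2 and 3. Over the 6 arrays it correlated with the shared beta probe set at Pearson r = 0.87 (exact permutation p = 0.0194, adjusted p = 0.146 over 15 relations) and Spearman rho = 0.89 (exact permutation p = 0.0333). Without the 2 arrays farthest from the median of the controls, r was 0.95. With 1428361_x_at r was 0.61 (exact permutation p = 0.206) and rho 0.54 (exact permutation p = 0.297). With 1417714_x_at r was 0.68 (exact permutation p = 0.139) and rho 0.77 (exact permutation p = 0.103). With S100a8 r was 0.50 (exact permutation p = 0.290) and rho 0.31 (exact permutation p = 0.564). Without the same 2 arrays, heterozygous 3 and wild type 3, r was 0.99 for 1417714_x_at and 0.80 for S100a8. With the controls as a covariate in the genotype fit, the difference at 1417184_s_at was 0.12 and that at 1428361_x_at 0.19. Beyond that, the part of the controls in the globin and S100a8 values was not tested.

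**Figure D1:**
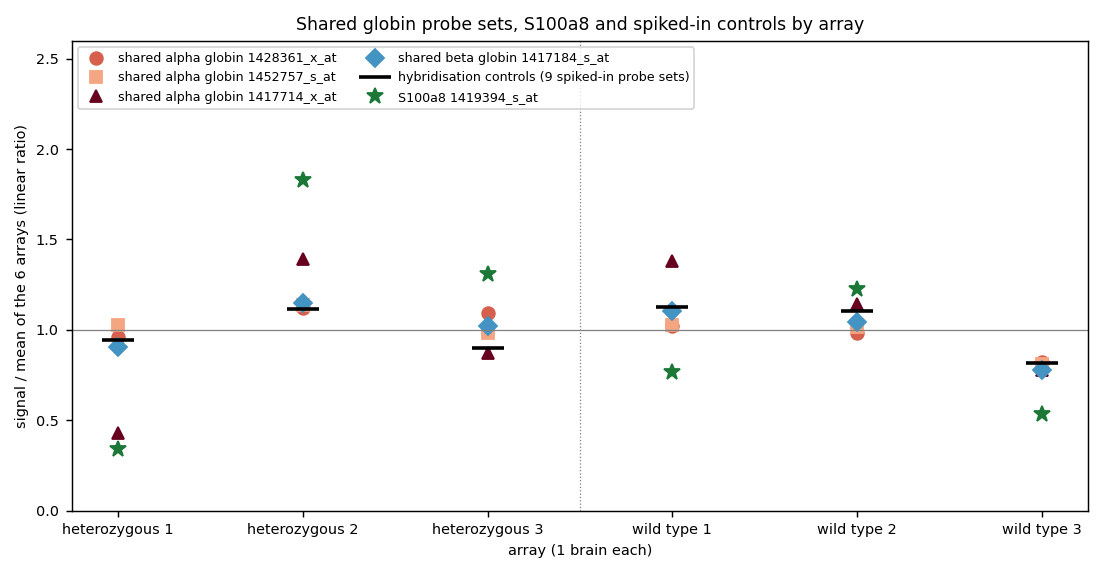
Signal of the 4 shared globin probe sets, of S100a8 and of the hybridisation controls on each array, divided by the mean of the 6 arrays (linear ratio, 1 symbol per array, dotted line between genotypes). The 3 bright globin probe sets stay between 0.78 and 1.15, whereas S100a8 runs from 0.34 in heterozygous 1 to 1.83 in heterozygous 2 and 1417714_x_at from 0.43 to 1.39.

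Of the red cell enzymes, Bpgm was steady and well above the dim limit, and Alas2 was above it at a lower signal. Bpgm at 1415865_s_at measured 544, 493 and 490 in heterozygous and 534, 451 and 473 in wild-type brains. The log2 difference was 0.07 (SE 0.10, interval -0.14 to 0.28, limma adjusted p = 0.971), with overlapping genotypes. At 1415864_at it measured 301, 317 and 305 against 314, 266 and 299, again a difference of 0.07 (SE 0.10, interval -0.15 to 0.28). At 1448119_at each heterozygous brain, at 343, 322 and 342, was above each wild-type brain, at 291, 302 and 308. That difference of 0.15 (SE 0.09, interval -0.05 to 0.35) did not pass the test (limma adjusted p = 0.956, exact permutation p = 0.1). It was the only one of the 8 tested probe sets of the blood genes whose genotypes did not overlap, against 10.2% of all 27022 probe sets tested. The 3 Bpgm probe sets read 1 gene and are not independent. Bpgm stood far above erythroid genes such as Slc4a1 and Klf1, which were dim. Whether its signal came from red cells was not tested.

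Alas2 at 1451675_a_at measured 25.3, 36.4 and 36.9 in heterozygous and 63.6, 27.9 and 23.2 in wild-type brains. Wild type 1 stood above the other 5 brains, and wild type 3 and heterozygous 1 were lowest. The log2 difference was -0.09 (SE 0.26, interval -0.65 to 0.48, limma adjusted p = 0.985). Without wild type 1 it was 0.23, and without heterozygous 1 it was 0.03, so its sign rests on single brains. Pituitary markers, 6 measured of a list of 7 and all above the dim limit on average, were highest in wild type 1, with a summed signal of 21234, and next in heterozygous 3, with 6709. These brains also had the highest pair of values of Alas2, where heterozygous 3 at 36.9 was nearly level with heterozygous 2 at 36.4. They were the highest pair of Hba-a1 too, which lay under the dim limit on all arrays. The pair was picked out after the values were seen, and its share over all probe sets was not counted. The part of the pituitary signal in those values was not tested.

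Of the 8 tested probe sets, S100a8 had the widest spread within genotypes. S100a8 at 1419394_s_at measured 16.4, 87.6 and 62.6 in heterozygous 1, 2 and 3 and 36.7, 58.7 and 25.5 in wild type 1, 2 and 3, a 5.33-fold range. The lowest and the highest brain were both heterozygous. The log2 difference was 0.23 (SE 0.37, interval -0.59 to 1.05, limma adjusted p = 0.974), 0.72 without heterozygous 1 and -0.11 without heterozygous 2. Its SD within genotypes, 0.69 on the log2 scale, was larger than that of 99.3% of the 3346 tested probe sets whose mean log2 value lay within 0.25 of its own.

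S100a9 at 1448756_at measured 15.5, 24.2 and 37.8 in heterozygous and 21.3, 42.0 and 10.1 in wild-type brains. Heterozygous 1 and wild type 3 were the lowest brains, as for S100a8, and both lay below the dim limit. The log2 difference was 0.09 (SE 0.30, interval -0.56 to 0.74, limma adjusted p = 0.986), -0.11 without heterozygous 3 and -0.19 without wild type 3. Its SD within genotypes of 0.49 exceeded that of 93.5% of probe sets of like signal. Ngp at 1418722_at varied less, at 24.2, 29.5 and 35.4 in heterozygous and 27.1, 26.1 and 22.6 in wild-type brains. Wild type 3 and heterozygous 1 were again the lowest. The log2 difference of Ngp was 0.14 (SE 0.18, interval -0.25 to 0.54, limma adjusted p = 0.966), and its SD within genotypes of 0.14 exceeded that of 10.7% of probe sets of like signal.

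**Figure D2:**
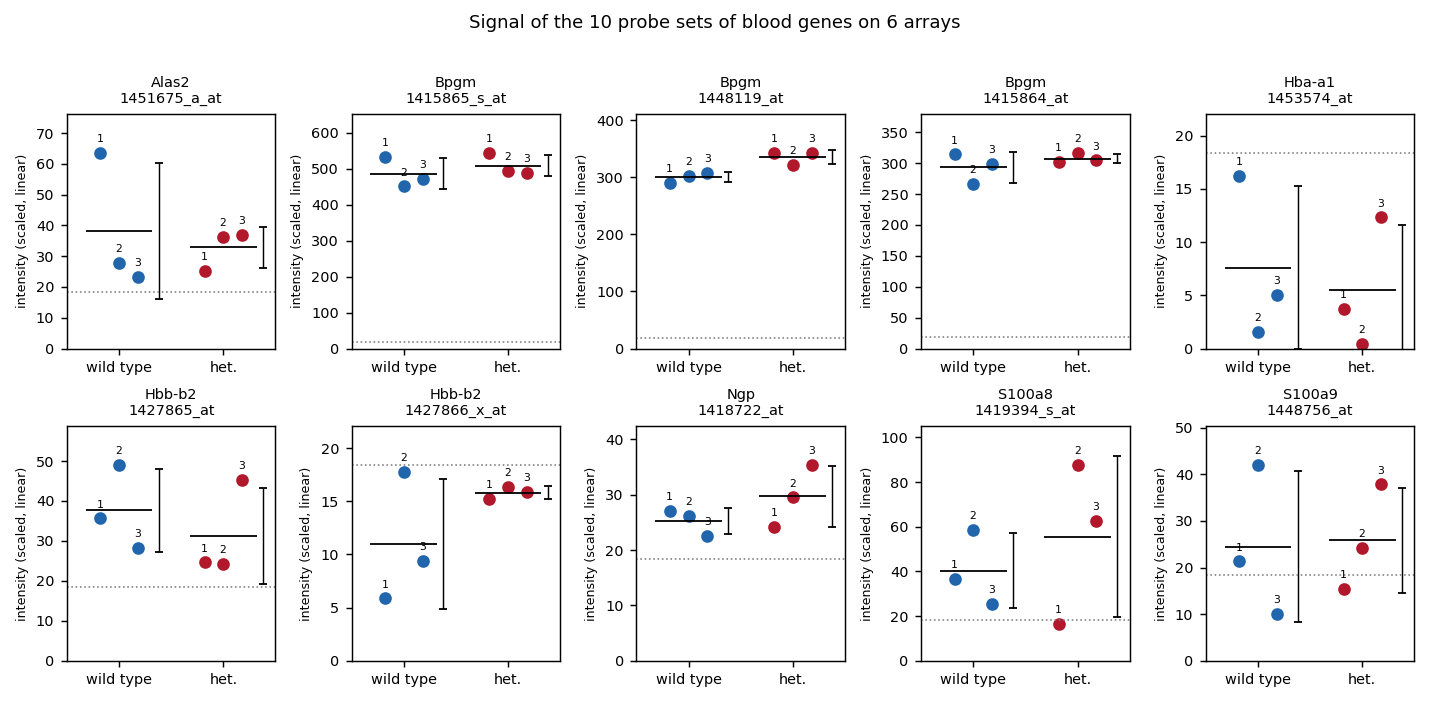
Intensity (scaled, linear) of each of the 10 probe sets in wild-type (blue) and heterozygous (red) brains, with the replicate number at each point, the genotype mean as a line, the SD (n = 3) as a bar beside it (drawn from 0 up where it reaches below, each panel on its own scale) and the dim limit of 18.4 as a dotted line. Hba-a1 and Hbb-b2 1427866_x_at lie under the limit on all 6 arrays, Bpgm lies far above it, and S100a8 runs from 16.4 to 87.6 within the heterozygous group.

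Across the set, none of the 8 tested probe sets was called by limma at an adjusted p below 0.05, where 0.0148% of all tested probe sets (4 of 27022) were. None had an unadjusted p below 0.05 either, against 4.83% of all tested. In sign, 6 were higher and 2 lower in heterozygous brains, between -0.19 and 0.23. Those higher include every probe set of Bpgm, which are not independent. Their median log2 difference was 0.08, against 0.01 for all tested probe sets. The spread of that median between brains of a genotype was 0.15 (SD, log2), larger than the median itself. The number of arrays limits the precision: the unadjusted interval of S100a8 as a ratio ran from 0.67 to 2.07 and that of Alas2 from 0.64 to 1.40. Differences within those ranges remain possible. A call also had to pass the adjustment across all 27022 tested probe sets, so the intervals are not limits of detection.

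**Figure D3:**
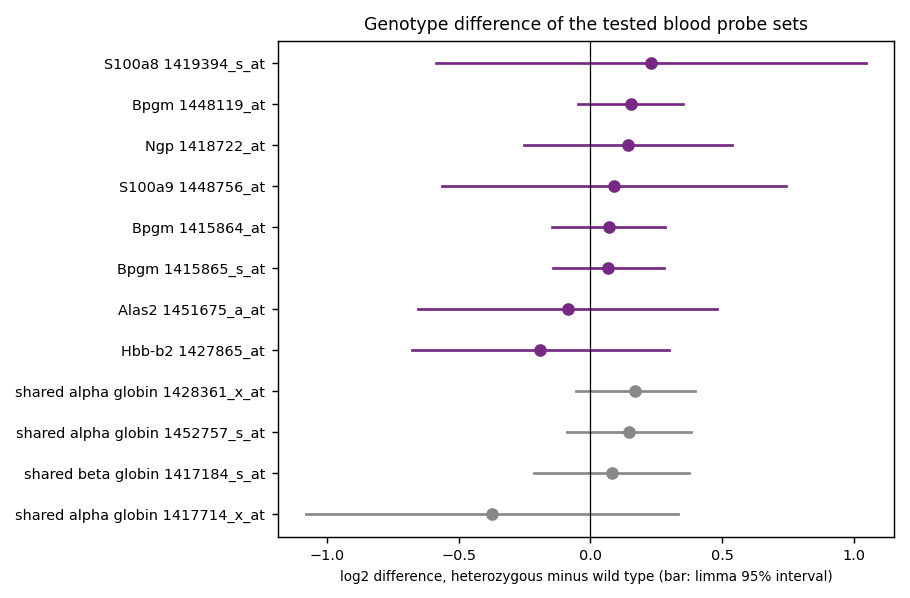
Log2 difference between heterozygous and wild-type brains (point) with its 95% limma interval (bar) for the 8 tested probe sets of the blood genes (purple) and the 4 shared globin probe sets (grey). Each interval spans 0, and the widest belong to S100a8 and the shared alpha probe set 1417714_x_at.

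Whether the genes varied together over brains was asked with Hba-a1 against each other gene, by the brightest probe set. Pearson r ran from -0.19 for S100a8 to 0.69 for Alas2, with rho of -0.31 and 0.43, and no relation passed (exact permutation p = 0.697 and 0.140 for r, 0.564 and 0.419 for rho, lowest adjusted p = 0.804 over 6 relations). Without heterozygous 3 and wild type 1, the brains farthest from the median of Hba-a1, r with Alas2 turned from 0.69 to -0.93. Because Hba-a1 lay under the dim limit throughout, the shared alpha probe set 1428361_x_at was also set against the others. It correlated with the shared beta probe set at r = 0.90 (exact permutation p = 0.0139, adjusted p = 0.146) and rho = 0.83 (exact permutation p = 0.0583), but at 0.45 without heterozygous 2 and wild type 3, so the relation rests on those brains. With the companion alpha probe set 1452757_s_at r was 0.87 (exact permutation p = 0.0514; rho = 0.60, exact permutation p = 0.242), and it turned to -0.85 without the same brains.

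With the neutrophil genes, the same alpha probe set correlated at r = 0.83 for Ngp (exact permutation p = 0.0431; rho = 0.94, exact permutation p = 0.0167; r = 0.98 without heterozygous 2 and wild type 3) and at 0.73 for S100a8 (exact permutation p = 0.0861; rho = 0.89, exact permutation p = 0.0333; r = 0.66 without them). For S100a9 r was 0.66 (exact permutation p = 0.149; rho = 0.60, exact permutation p = 0.242; r = 0.47 without them). S100a8 and S100a9 correlated at r = 0.72 (exact permutation p = 0.115; rho = 0.71, exact permutation p = 0.136; r = 0.99 without heterozygous 1 and heterozygous 2). For Bpgm r was 0.18 (exact permutation p = 0.753; rho = 0.14, exact permutation p = 0.803). None of the 15 relations passed after adjustment (lowest adjusted p = 0.146 for r), and the groups of 3 brains are too small for values within a genotype. Heterozygous 1 and wild type 3 were the lowest pair for Alas2, Ngp, S100a8 and S100a9, which are 4 of the 8 tested probe sets, and for 3 of the 4 shared globin probe sets. Over all tested probe sets 6.69% had this lowest pair. The pair was chosen after the values had been seen, so the count carries no test.

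Most other markers of blood cells were at or under the dim limit. Of 21 measured genes of a red cell and erythroid list, 14 were dim, among them the defining genes Slc4a1, which encodes the anion exchanger of the red cell membrane, at 2.63 to 17.6, Epb42 at 1.01 to 17.0, Rhag at 0.26 to 9.69 and the erythroid transcription factor Klf1 at 12.3 to 21.0. Of 7 other globins, the embryonic genes Hba-x, Hbb-bh1 and Hbb-y were dim, as was the single-gene probe set of Hba-a2. The brain globins neuroglobin (Ngb) and cytoglobin (Cygb) were above the limit, with log2 differences of 0.11 (SE 0.15) and -0.20 (SE 0.11). Among the erythroid genes the highest by test statistic was Tfrc, the transferrin receptor, at 0.23 (SE 0.08), from 802 to 947, and the lowest was Epor, the erythropoietin receptor, at -0.32 (SE 0.16), from 63.4 to 48.2. Tfrc, which many cell types express, was not called (limma adjusted p = 0.956).

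All 8 measured genes of heme synthesis passed the dim limit, 3 higher and 5 lower in sign, with Alad, the second enzyme of the pathway, at 0.28 (SE 0.17) and Cpox, coproporphyrinogen oxidase, at -0.26 (SE 0.14). In the list of heme and iron handling, 3 of 10 measured genes were dim (Hpx, Hp and Cd163), and 5 of the 7 tested were higher in sign. Hmox1, the inducible heme oxygenase that degrades free heme, was at -0.41 (SE 0.23), from 27.0 to 16.8. The heterozygous mean of Hmox1 lay under the dim limit, so Hmox1 entered the test through the wild-type brains. Uros, uroporphyrinogen III synthase, was lower in sign without overlap, at 204 to 219 in heterozygous and 231 to 248 in wild-type brains, a difference of -0.15 (SE 0.10, limma adjusted p = 0.956), and was picked out after its values were seen. Tfrc, which this list also holds, did not overlap either, at 881 to 981 against 777 to 826. Outside the heme lists, Epor did not overlap, at 36.8 to 55.6 against 61.8 to 66.3. Nor did the platelet gene Gp5, at 26.6 to 38.6 against 39.4 to 50.6, both lower in sign. Of all 27022 probe sets tested, 10.2% did not overlap. None of the heme genes was called.

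In the neutrophil list, 13 of 23 measured genes were dim, among them the granule genes Camp, at 4.78 to 17.6, Elane, at 3.49 to 21.3, and Mpo, at 11.8 to 19.0. Of the 10 tested, 8 were higher in sign in heterozygous brains, with a median log2 difference of 0.12, and none was called. The median rests in part on S100a8, S100a9 and Ngp. Highest was Fpr2, a formyl peptide receptor, at 0.69 (SE 0.32), from 13.8 to 28.7. Wild type 1 and wild type 3 measured 8.72 and 1.39, and wild type 2 measured 31.2. The wild-type mean of Fpr2 lay under the dim limit, so Fpr2 entered the test through the heterozygous brains. It is among the 8 genes higher in sign and enters the median. Lowest was Anxa1 at -0.16 (SE 0.16). Microglia express some of the list, such as Itgam and Csf3r.

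Platelet genes were dim for 5 of 9, with Gp1bb at 0.00 (SE 0.12) and Gp5 at -0.26 (SE 0.17). T and B cell genes were dim for 7 of 9, Cd3d at 0.74 to 2.94 among them. The exceptions were Cd8a, at -0.19 (SE 0.21), and Ighm, the immunoglobulin mu chain, at 0.25 (SE 0.39), with wild type 2 at 75.0 and the rest at 199 to 355. Monocyte genes were dim for 3 of 6, with Vcan at 0.22 (SE 0.13) and F13a1 at -0.10 (SE 0.21). All 4 mast cell genes were dim. No gene of the blood cell lists was called, and the limma adjusted p of each tested gene named in these lists was 0.956 or above. The dim genes were not tested.

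**Figure D4:**
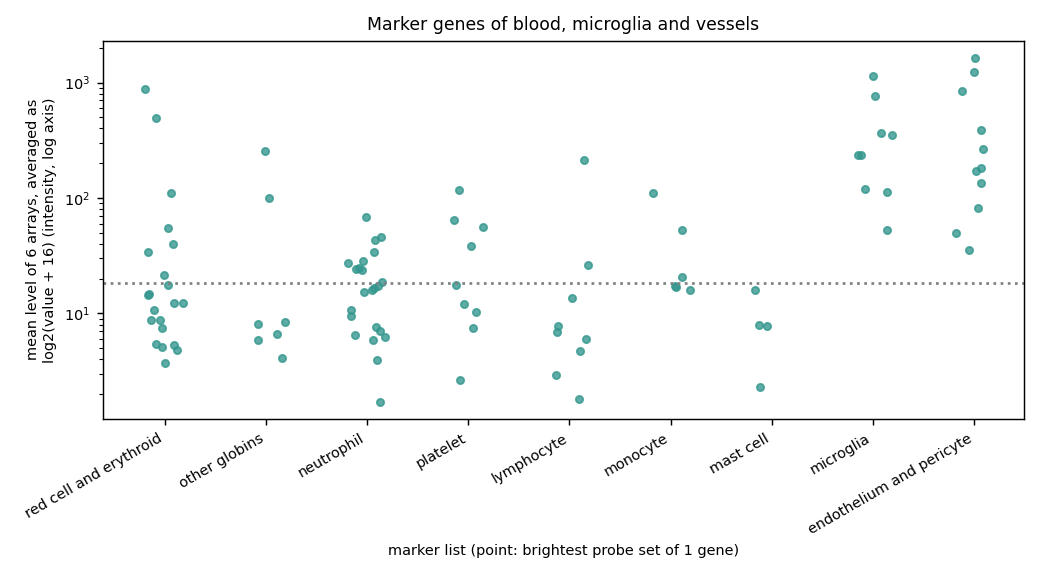
Mean level over the 6 arrays (averaged as log2(value + 16), shown as intensity on a log axis) of the brightest probe set of each measured marker gene, by list, with the dim limit of 18.4 as a dotted line. Most erythroid, neutrophil, lymphocyte and mast cell markers lie near or under the limit, whereas all 9 microglial and all 11 endothelial and pericyte markers lie above it.

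The tissue label was checked against its markers. All 10 measured markers of neurons, astrocytes and oligodendrocytes passed the dim limit, with summed signals of 34536 to 40514 in heterozygous and 35586 to 37069 in wild-type brains. The summed signal of 11 vessel markers was 4731 to 5154 against 4811 to 5329, and that of the 9 microglial markers 3134 to 3508 against 3298 to 3827. The pituitary sums ran from 185 to 6709 against 791 to 21234. Array medians ran from 31.2 to 34.5, the 3′ to 5′ ratio of actin from 1.60 to 1.72, and the correlation between arrays from 0.978 to 0.984. The 18S ribosomal signal was highest in wild type 2, at 174, against 77.8 to 111 elsewhere.

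Genes that varied most like the globins were sought among 2913 probe sets with 1 gene and an SD over the arrays of at least 0.3 (log2). Against the mean of the centred log2 values of the Hba-a1 and Hbb-b2 probe sets, the highest Pearson r over the 6 arrays was 0.94 for Ufm1, Cxcl17 at 0.94, Prrc1 at 0.93, Tsc22d3 at 0.93, Cacnb2 at 0.93 and Rabif at 0.92. Ufm1 at 1458168_at measured 42.2, 39.7 and 81.0 in heterozygous and 51.2, 69.5 and 46.7 in wild-type brains. Of the probe sets in that mean, only Hbb-b2 1427865_at was above the dim limit. The mean also ran unlike that of the bright shared globin probe sets. Heterozygous 2 was lowest in the former, at -0.19, and highest in the latter, at 0.28. The likeness to Ufm1 and the others named with it is therefore to mostly dim signal. Against the shared globin probe sets, Zfp825 was highest at 0.99, with 67.1, 134 and 103 in heterozygous and 133, 119 and 66.7 in wild-type brains, followed by Grin3b at 0.99, Nt5e at 0.99, Phtf2 at 0.98, Mindy4 at 0.98 and Gal3st2 at 0.97. No erythroid or neutrophil gene of the lists was among either group of 6, but most of them could not be. The search left out the blood genes of the set themselves and every probe set under the dim limit. With 6 arrays and 2913 probe sets, values of this size are the extremes of a long ranking and carry no test.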

How the data were processed

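The deposited table held 1 linear intensity per probe set for each of 6 Affymetrix arrays (biotin-labelled cRNA primed with oligo(dT), per the labels' protocols), 1 per brain. The probe summary and its software are not given in the sources used here. The authors' deposited intensities had been scaled: on each array the central 96% averaged 150.0. Of 45101 probe sets, 64 manufacturer's controls were set apart. The platform annotation gave 1 gene for 34945 of the rest and several for 932, and 34741 were matched to RefSeq (GRCm38.p6) by Entrez identifier.

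Values were transformed as log2(value + 16), which understates changes of dim probe sets. Probe sets at or below the 40th percentile of the mean log2 value (a signal of 18.4) were left out, leaving 27022. Genotypes were compared with limma 3.58.1 in R 4.3.3 (lmFit, eBayes with an intensity trend, no covariate), two-sided, and called below 0.05 after adjusting across those 27022 by Benjamini and Hochberg. Single values had exact permutation tests. The fit and correlation steps were tested on simulated data. Genes and lists were chosen with earlier results of these data known. List genes named are the highest and the lowest by test statistic of each blood and heme list, without the blood genes themselves, and genes under the dim limit named as examples were chosen after their values were seen. The relations and covariates using shared globin probe sets or hybridisation controls were added after seeing the data. Alternatives were other pseudocounts, dim filters, normalizations and variance settings, array weights, a replicate block, covariates and leaving out each array.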

Additional observations from a re-analysis of the deposited data

How the results depend on the processing

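No probe set of the blood genes was called under any of the 18 alternatives that were run for that count, and their median log2 difference stayed between 0.04 and 0.19. Over the whole table, 4 probe sets were called, and 1 without the dim filter, 1 without the trend, 1 with the level of the globin probe sets of single genes as a covariate and 1 to 14 with single arrays left out (14 without heterozygous 1, 1 without heterozygous 2, 2 without heterozygous 3 and 2 without wild type 3). With the shared globin level or the hybridisation controls as a covariate, 4 were called. With a replicate block on the numbers II and III, the only ones that both genotypes' titles carry, 43 were called. That fit also drops heterozygous 1 and wild type 1, and the same 4 arrays without the block gave 11. In both of these fits the difference of Alas2 was 0.34 and that of the shared alpha probe set 1417714_x_at 0.21, so their turn in sign came with the choice of arrays and not with the block. The fit without the block was added after seeing the data. The deviations of the paired arrays correlated at 0.20 for number 2 and -0.02 for number 3. Arrays of unlike number across the genotypes correlated at -0.16 to 0.085. With so few pairs, these values cannot decide whether the numbers mark a pairing.

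With single arrays left out, the difference of Alas2 ran from -0.28 to 0.23, of S100a8 from -0.11 to 0.72, of S100a9 from -0.19 to 0.39, of 1417714_x_at from -0.74 to 0.040 and of 1417184_s_at from -0.075 to 0.18. Without a turn in sign, that of Hbb-b2 ran from -0.39 to -0.04, of Ngp from 0.05 to 0.23, of Bpgm from 0.02 to 0.13, of 1428361_x_at from 0.08 to 0.24 and of 1452757_s_at from 0.04 to 0.21. The correlation of Hba-a1 with S100a9 turned from 0.02 to -0.081 with a pseudocount of 1. The cause of these changes was not tested. Values near the dim limit, such as those of S100a9 and Hba-a1, are limited by signal over background. No detection calls were used.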

Other observations

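Below the dim limit, a pair of further neutrophil genes had heterozygous 1 and wild type 3 as their lowest brains, chosen here after their values were seen. Ltf, which encodes the granule protein lactoferrin, measured 4.14, 30.4 and 21.5 in heterozygous and 13.8, 30.6 and 8.93 in wild-type brains. Trem1, a receptor of neutrophils and monocytes, measured 5.36, 20.6 and 16.4 against 6.52, 12.5 and 5.95, with wild type 1 close to the low pair. Other dim neutrophil genes had the same brains as their highest pair. Mmp8 measured 22.2, 1.67 and 1.80 against 8.46, 3.43 and 14.2, and Fcnb 26.0, 2.06 and 12.7 against 22.5, 21.8 and 25.7. The share with that highest pair was not counted. As the lowest pair, heterozygous 1 and wild type 3 were found in 5 of the 23 measured neutrophil genes, S100a8, S100a9 and Ngp among them. The same held for 2 of the 21 measured erythroid genes. Of all 45037 probe sets, 6.46% had this lowest pair.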
